A study of Mus musculus with 2 samples.

Results

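Foxp3-positive regulatory T cells (Tregs) of B16F10 melanomas were picked out by their transcripts: 205 of 12815 kept barcodes, 110 of 7086 from the control library and 95 of 5729 from the library labelled knockout. A barcode is the tag of 1 droplet, and barcodes under 200 genes or above 10% mitochondrial UMIs were dropped, a UMI being 1 counted transcript molecule. A member had at least 1 Foxp3 UMI and at least 1 UMI of Cd3e, Cd3d or Cd3g, and no UMI of Cd8a, Cd8b1 or Cd209a. It also had fewer than 3 UMIs of the proliferation genes Mki67 and Top2a together, at most 2 UMIs of the macrophage genes C1qa, C1qb and C1qc, and at most 1 UMI of the B-cell genes Cd79a and Cd79b. These genes chose the members, so their levels are given as a description only.

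Regulatory T cells are CD4 T cells that carry the transcription factor Foxp3 and hold other immune cells in check. They take up interleukin-2 through its high-affinity receptor, carry the inhibitory receptor CTLA-4 and release suppressive mediators such as interleukin-10. In tumors they are known to gather in an activated, effector form and to restrain the T cells that attack the tumor, while a resting form with the transcription factors Tcf7 and Lef1 circulates through lymphoid organs.

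The study injected B16F10 cells, a mouse melanoma line, under the skin of C57BL/6 mice and sorted live CD45+ leukocytes from the tumors at day 14. The control mice were Usp18f/f, with a loxP-flanked Usp18 gene. The other mice were Usp18f/f LysM-Cre, in which Cre from the Lyz2 locus acts in macrophages, monocytes and neutrophils, so that Tregs are not its intended target. Both groups carry the floxed alleles, no Cre-only group was analysed here, and 4 tumors per group were pooled into 1 library of the 10x 3' kind.

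With 1 library per genotype, no difference between genotypes has a replicate check, and intervals cover counting error only. Usp18, which removes the ubiquitin-like protein ISG15 and restrains interferon receptor signalling, went against the label. In barcodes with a UMI of the macrophage receptor Csf1r it stood at 19.0 CPM (UMIs of a gene per 1000000 UMIs of the sum) in the control and 74.4 CPM in the other library, which is therefore called the library labelled knockout. The counts come from the 3' end of transcripts, and the flanked exons are not given in the sources used here, so they do not check the deletion itself. Lyz2, the gene that carries Cre, stood at 7632 CPM in the same control barcodes and at 14.8 CPM in those of the library labelled knockout. In Tregs, Usp18 had 3 UMIs (7.30 CPM) in the control and 26 UMIs (60.7 CPM) in the library labelled knockout, and Lyz2 had 422 and 0 UMIs.

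The members held 411194 UMIs in the control and 428674 in the library labelled knockout, with a median of 2895 and 3165 UMIs per member. Of 8 barcode sequences that both libraries share, 0 were members. Both pools mixed male and female cells, in unequal parts. Among members with transcripts of only 1 kind, 28 of 76 in the control (36.8%) and 66 of 76 in the library labelled knockout (86.8%) had the female transcript Xist rather than Y-linked transcripts. Some members also carried transcripts of myeloid cells. At least 10 UMIs of the macrophage, dendritic-cell and neutrophil lists were found in 12 of 110 control members (10.9%, exact Clopper-Pearson 95% interval 5.77 to 18.3) and in 23 of 95 members of the library labelled knockout (24.2%, 16.0 to 34.1). These members are called myeloid-high. They held 26.5% and 50.5% of all Treg UMIs, so the main results are also given for the 98 and 72 myeloid-low members, a division chosen after the data were seen. The macrophage list holds Lyz2, which had 422 UMIs in control members and 0 in members of the library labelled knockout. The limit of 10 UMIs is therefore not the same measure in both libraries.

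A fixed limit of 10 UMIs favours deep barcodes, so depth is in part set by the division. The myeloid-high members had a median of 8169 UMIs in the control and 8168 in the library labelled knockout, against 2719.5 and 2561.5 in myeloid-low members. Their median UMIs of the 5 Treg markers, which include the Foxp3 that the rule required, were 17.5 and 20, against 16 and 17 in the myeloid-low members. Relative to all their UMIs the markers were lower, at 1898 and 2237 CPM against 5574 and 6383 CPM. Tyrobp and Csf1r belong to the macrophage list that helped to set the division, so their counts only describe it. The signalling adaptor Tyrobp had a UMI in 12 of 12 and 21 of 23 myeloid-high members, and in 6 of 98 and 5 of 72 myeloid-low members. Csf1r had a UMI in 10 of 12 and 9 of 23 of them and in 0 myeloid-low members of either library. Conventional CD4 T cells had fewer myeloid-high barcodes, 11 of 271 (4.06%) and 12 of 113 (10.6%), as did CD8 T cells, 26 of 553 (4.70%) and 31 of 375 (8.27%). With every barcode thinned to 1000 UMIs, at least 3 myeloid UMIs were found in 14.7% and 28.7% of members. The same held for 4.89% and 10.1% of conventional CD4 T cells and 5.45% and 7.88% of CD8 T cells. Scrublet, a doublet caller that was not used for the main results, would remove 8 and 5 members.

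The label was checked on markers that the rule did not use. Ikzf2 encodes Helios, a transcription factor of Tregs. Ctla4 encodes the inhibitory receptor, Tnfrsf4 the costimulatory receptor OX40, and Izumo1r the folate receptor 4. Of these 4 genes, 3 or 4 were detected in 87 of 110 control members (79.1%) and in 79 of 95 members of the library labelled knockout (83.2%), and no member lacked all of them. In conventional CD4 T cells, meaning CD3-positive barcodes with Cd4 and without Foxp3 or CD8, the same held for 22 of 271 (8.12%) and 21 of 113 (18.6%). Some of the conventional cells thus carried most Treg markers without a Foxp3 UMI. Cd4 itself was detected in 60 of 110 (54.5%) and 43 of 95 members (45.3%), a gene that the rule did not ask for.

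Because depth differs between classes, detection was also compared with every barcode thinned to 1000 UMIs, which leaves 109 and 94 members. Ikzf2 then had a UMI in 82.6% of control members and 81.9% of members of the library labelled knockout. Conventional CD4 T cells stood at 19.9% and 18.3%, CD8 T cells at 8.18% and 7.61%, and B cells, which should lack the gene, at 0.495% and 0.674%. Ctla4 was detected in 55.0% and 53.2% of members, in 12.4% and 13.8% of conventional CD4 T cells, and in 0.0707% and 0.225% of B cells. Tnfrsf4 was seen in 48.6% and 63.8% of members, against 8.27% and 21.1% of conventional CD4 T cells. Izumo1r was the least often seen, in 29.4% and 23.4% of members and in 8.27% and 6.42% of conventional CD4 T cells. Every marker was thus more frequent in members than in the other classes of the same library. Before thinning, the median depth was 1532 and 1822 UMIs in B cells and 2088 and 2579 in conventional CD4 T cells. Foxp3 itself was absent from 1458 and 458 B cells, which allows shares up to 0.253% and 0.802% by the exact interval.

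**Figure D1:**
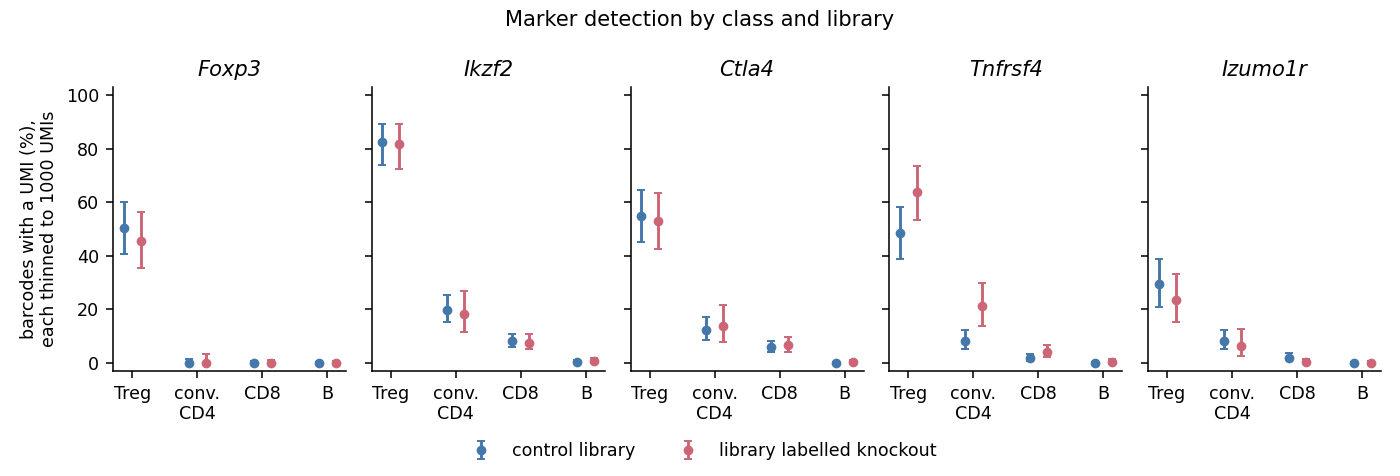
Share of barcodes (%) with a UMI of each Treg marker after thinning every barcode to 1000 UMIs, for Tregs, conventional CD4 T cells, CD8 T cells and B cells; points are shares, bars are exact 95% binomial intervals, blue is the control library and red the library labelled knockout. Foxp3 defines the classes of T cells, whereas Ikzf2 lies above 80% in Tregs of both libraries without having been used.

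Members just inside and outside the thresholds were few for most criteria. A single Foxp3 UMI carried 44 control members and 42 of the library labelled knockout, while 66 and 53 had at least 2, up to 9 and 6. A single CD3 UMI carried 9 and 7 members. Exactly 2 proliferation UMIs were found in 10 and 1 members, and 2 and 1 barcodes fell outside with 3. A single CD8 UMI kept out 8 and 6 barcodes that met every other criterion, and a single Cd209a UMI kept out 1 and 7. B-cell transcripts were rare in members, with 6 and 2 UMIs of the B-cell list in all. Only 1 of the gamma-delta T-cell markers was in the feature table, and it had 0 UMIs, so the absence of these cells was not checked. Melanoma markers had 15 and 24 UMIs in members. In the classes compared with Tregs below they were uneven, with 1028 and 16 UMIs in conventional CD4 T cells and 62 and 1635 in CD8 T cells. In myeloid-low barcodes of these classes they had 28 and 9 UMIs, and 50 and 37 UMIs.

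Tregs differed from conventional CD4 T cells by more of the effector Treg transcripts and fewer of the resting ones. The UMIs of each class were added up within each library, and Tregs, conventional CD4 T cells and CD8 T cells of both libraries were fitted together with edgeR's quasi-likelihood test, with the library as a term. The 2 libraries serve as replicates although they differ in genotype, and the library term removes shifts that all classes share. The p-values thus measure only how far class differences vary between these 2 pools, which includes any effect of genotype on single classes. Of 7275 genes tested, 309 were higher in Tregs (4.25%) and 296 lower (4.07%) at a Benjamini-Hochberg adjusted p below 0.05. In myeloid-low barcodes, 397 of 6445 (6.16%) were higher and 408 (6.33%) lower. Both fits called 211 of the 309 higher and 268 of the 296 lower genes.

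The markers outside the rule stood apart in both libraries. Ikzf2 stood at 2223 CPM in control Tregs and 1680 CPM in Tregs of the library labelled knockout, against 397 and 485 CPM in conventional CD4 T cells (log2 fold change 2.08, SE 0.16, adjusted p = 6.17e-05). Ctla4 stood at 793 and 896 CPM against 159 and 202 CPM (2.17, SE 0.14, adjusted p = 3.72e-05). Both genes were higher in Tregs of each library.

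Of 17 tested genes of the core Treg list, 11 were higher in Tregs and 0 lower, with a median log2 fold change of 1.19. Il2ra, the alpha chain of the interleukin-2 receptor, stood at 348 and 299 CPM in Tregs and at 53.5 and 82.7 CPM in conventional CD4 T cells (2.26, SE 0.32, adjusted p = 0.00144). Tnfrsf18, which encodes the costimulatory receptor GITR, stood at 496 and 774 CPM against 194 and 342 CPM (1.20, SE 0.15, adjusted p = 0.000802). Fgl2, a secreted fibrinogen-like protein with suppressive activity, had 428 and 359 CPM against 64.8 and 82.7 CPM (2.38, SE 0.26, adjusted p = 0.000352). Capg, an actin-capping protein, and Itgb8, the integrin chain that helps to activate TGF-beta, were also higher, at log2 fold changes of 1.61 and 1.53. These genes covered receptor, secreted and adhesion functions. Nrp1, a surface protein of thymus-derived Tregs, did not pass, at 170 and 110 CPM against 151 and 74.1 CPM (adjusted p = 0.508). Nt5e, the ectoenzyme CD73, did not pass either (0.11, SE 0.25, adjusted p = 0.872). Itgae, the integrin chain CD103, reached 1.25 without passing (adjusted p = 0.144), and 3.17 in myeloid-low barcodes (adjusted p = 3.99e-10).

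The effector list gave 14 higher and 0 lower of 19 tested genes, with a median of 1.19. Tnfrsf9, the costimulatory receptor 4-1BB, stood at 511 and 672 CPM in Tregs and at 63.4 and 217 CPM in conventional CD4 T cells (2.20, SE 0.26, adjusted p = 0.00055). Klrg1, a receptor of terminally differentiated T cells, had 192 and 147 CPM against 23.9 and 37.1 CPM (2.49, SE 0.29, adjusted p = 0.00054). Il1rl1, the interleukin-33 receptor ST2, had 68.1 and 44.3 CPM against 8.45 and 0 CPM (3.42, SE 0.63, adjusted p = 0.00732). All 3 receptors were higher in Tregs of each library. The decoy receptor Il1r2, the protease Gzmb and the transcription factor Prdm1, a driver of effector differentiation, reached 2.15, 1.64 and 1.43. Icos, a costimulatory receptor, reached 0.78 (SE 0.16, adjusted p = 0.0122), with 579 CPM in Tregs of both libraries. The transcription factor Maf had 805 and 756 CPM against 366 and 413 CPM and missed the threshold (adjusted p = 0.0613), while in myeloid-low barcodes it passed (adjusted p = 1.96e-09).

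The resting list lay the other way, with 0 higher and 13 lower of 16 tested genes and a median of -2.19. Tcf7, a transcription factor of naive and memory T cells, stood at 17.0 and 25.7 CPM in Tregs and at 541 and 416 CPM in conventional CD4 T cells (-4.52, SE 0.24, adjusted p = 1.01e-05). Its partner Lef1 had 53.5 and 63.0 CPM against 277 and 282 CPM (-2.31, SE 0.23, adjusted p = 0.000215). Klf2, which drives genes of T-cell recirculation, had 82.7 and 95.6 CPM against 480 and 556 CPM (-2.59, SE 0.19, adjusted p = 5.63e-05). Tcf7 thus showed the widest gap of these 3 factors, each of which was lower in Tregs of both libraries. S1pr1, the receptor for exit from tissue into lymph, and the survival factor Bcl2 reached -2.09 and -2.11. Il7r, the interleukin-7 receptor, was lower by less, at -1.20 (SE 0.12, adjusted p = 0.000221). Bach2, a repressor of effector genes, had 0 and 7.0 CPM in Tregs and 73.2 and 62.7 CPM in conventional cells. Dapl1, whose transcript marks naive T cells, had 0 UMIs in Tregs, below limits of 7.30 and 7.0 CPM that 3 UMIs would give, and 61.9 and 31.4 CPM in conventional cells. Ccr7, a receptor for entry into lymph nodes, did not pass (14.6 and 156 CPM against 227 and 231 CPM, adjusted p = 0.0865). Of the 67 Ccr7 UMIs in members of the library labelled knockout, 53.7% came from 1 barcode, and in myeloid-low barcodes Ccr7 reached -3.08 (adjusted p = 3.29e-10).

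**Figure D2:**
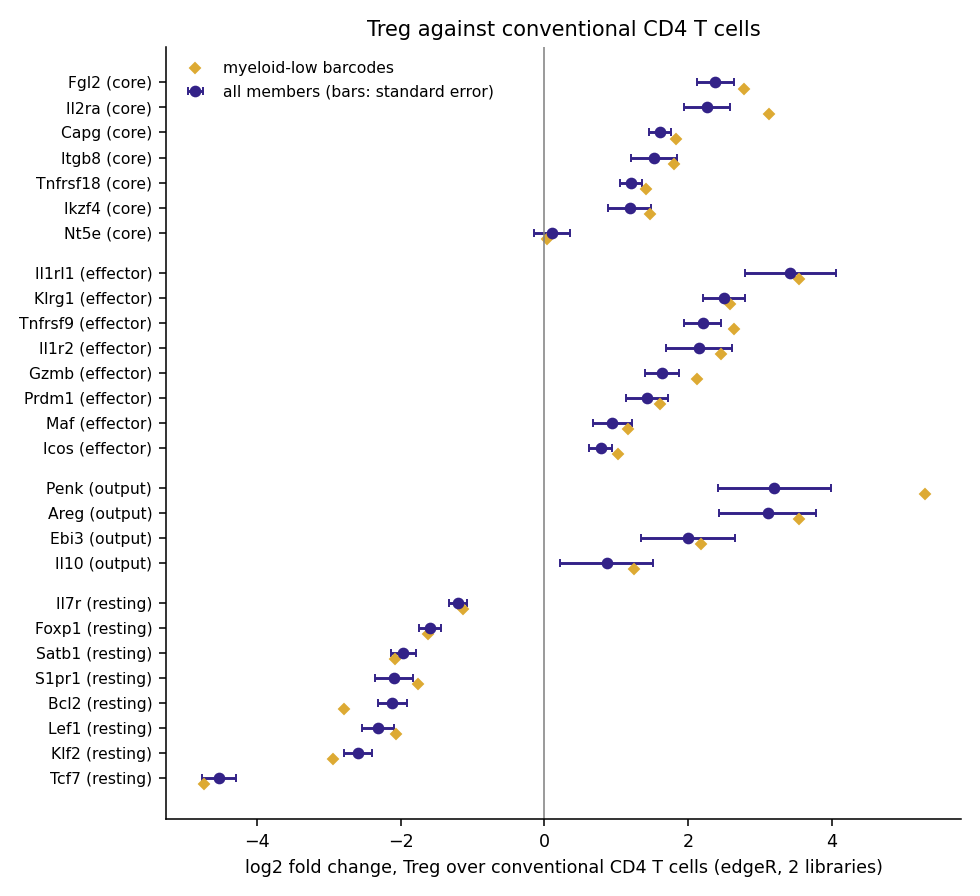
Log2 fold change of Tregs over conventional CD4 T cells for genes of the core, effector, suppressive output and resting lists; dark points with bars are edgeR values with standard errors for all members, orange diamonds the values for myeloid-low barcodes. Core and effector genes lie at or right of 0 and resting genes left of it, with Tcf7 at -4.52.

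Transcripts of the suppressive output list were mostly higher, with 8 of 12 tested genes higher and 0 lower. The list shares Il2ra, Fgl2, Entpd1, Nt5e, Gzmb and Lgals1 with the core and effector lists, so its count is not separate from theirs. Areg, the tissue-repair growth factor amphiregulin, stood at 53.5 and 23.3 CPM in Tregs and at 5.63 and 2.85 CPM in conventional CD4 T cells (3.10, SE 0.68, adjusted p = 0.0169). Penk, which encodes the opioid precursor proenkephalin, had 102 and 63.0 CPM against 0 and 25.7 CPM (3.20, SE 0.79, adjusted p = 0.0316), but 61.9% and 48.1% of its Treg UMIs came from 1 barcode of each library. Entpd1, the ectoenzyme CD39, reached 1.61. Il10 did not pass, at 24.3 and 58.3 CPM against 8.45 and 39.9 CPM (adjusted p = 0.501), nor did Ebi3, a subunit of interleukin-35 (2.0, adjusted p = 0.0973). Tgfb1 passed with all members (0.75, adjusted p = 0.0398) and not in myeloid-low barcodes (0.49, adjusted p = 0.201).

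Trafficking genes were mixed, with 3 higher and 3 lower of 17 tested. The inflammatory chemokine receptor Ccr2 stood at 907 and 991 CPM in Tregs against 203 and 379 CPM in conventional CD4 T cells (1.70, SE 0.21, adjusted p = 0.000694), and Ccr1 reached 2.13. The integrin chains Itga4 and Itgb1, which pair as VLA-4, were lower, at -1.16 and -1.68. Of 11 tested inhibitory-receptor genes, 4 were higher and 1 lower. Lag3, Pdcd1 and Havcr2, which encode LAG-3, PD-1 and TIM-3, reached 1.75, 1.02 and 2.23 with adjusted p of 0.0441, 0.0365 and 0.0452. Of 19 genes of glycolysis and hypoxia, 7 were higher and 0 lower (median 0.51), among them the glucose-phosphorylating enzyme Hk2 (1.56) and the hypoxia factor Hif1a (0.76). In myeloid-low barcodes 12 of 17 were higher. Of 30 Treg transcription factors, 3 were higher and 5 lower. Of the macrophage list, 7 of 10 genes were also higher with all members. In myeloid-low barcodes, which low counts of this list helped to define, 0 of 5 were.

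Beyond the lists, the leading higher genes included Bspry, at 46.2 and 25.7 CPM in Tregs and 1.41 and 0 CPM in conventional CD4 T cells, and Rapsn, at 73.0 and 72.3 CPM against 8.45 and 5.70 CPM (3.18). Tnfsf8, the ligand of the receptor CD30, was among the lowest, at 7.30 and 2.33 CPM against 87.3 and 68.4 CPM (-4.10). Cxcl9, Ptgs2, Arg1, Mgl2, Lpl and Igsf6 also led the higher genes, and they were too low to be tested in myeloid-low barcodes. With the Wald test of DESeq2 or a 5% mitochondrial limit, the calls of Ikzf4, Itgb8, Entpd1, Prdm1, Lag3, Pdcd1, Havcr2, Penk and Tgfb1 ended, and Pdcd1 turned to -0.093 at the 5% limit. The 5% limit also ended those of Il1rl1 and Il1r2, with adjusted p of 0.118 and 0.24.

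Single members mostly held more effector-list than resting-list UMIs in both libraries. The lists differ in genes and levels, so these counts are given beside conventional CD4 T cells and do not set the state of a single member. After thinning to 1000 UMIs, control members held a median of 9 effector-list UMIs (quartiles 5 and 13, range 0 to 28) and members of the library labelled knockout 9 (6.25 and 14, 0 to 29). Conventional CD4 T cells held medians of 2 and 4. Resting-list UMIs had a median of 1 in members of each library and of 4 in conventional cells. No resting UMI at all was found in 45 of 109 (41.3%) and 35 of 94 members (37.2%). Only 5 of 109 and 5 of 94 members had more resting than effector UMIs, whereas 133 of 266 and 49 of 109 conventional cells did. Across members, effector and resting UMIs ran weakly against each other, with a Spearman correlation of -0.29 and -0.19, given without a test because all members of a library share it.

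**Figure D3:**
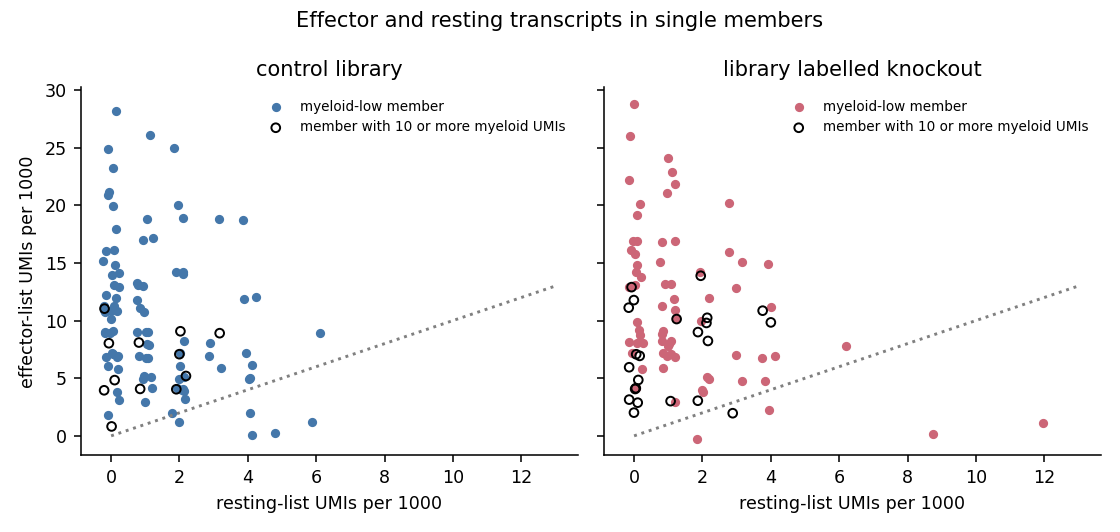
Effector-list UMIs against resting-list UMIs in each member thinned to 1000 UMIs, for the control library (left) and the library labelled knockout (right); each point is 1 member, drawn with a small random offset, open circles are myeloid-high members and the dotted line marks equal numbers. Most members lie above the line in both libraries, and the resting-rich members reach 6 UMIs in the control and 12 in the library labelled knockout.

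Against CD8 T cells, defined by a CD8 UMI without Foxp3 or Cd4, Tregs had 559 of 7275 genes higher (7.68%) and 451 lower (6.2%) in the same fit. In myeloid-low barcodes the counts were 670 (10.4%) and 667 (10.3%) of 6445. Core genes were higher in 15 of 17 and effector genes in 15 of 19 tests, with 0 lower in both lists, and resting genes were lower in 15 of 16. Icos stood at 579 CPM in Tregs of both libraries and at 73.5 and 59.9 CPM in CD8 T cells (2.94, SE 0.17, adjusted p = 2.05e-06). Itgb8 had 94.8 and 67.7 CPM against 2.13 and 2.63 CPM (4.86, SE 0.38, adjusted p = 1.48e-05). Areg had 53.5 and 23.3 CPM against 0.533 and 0 CPM (6.38, SE 0.78, adjusted p = 0.000252). Itgb8 and Areg were close to absent from CD8 T cells, whereas Icos was present there at a lower level. Il10 passed here, at 24.3 and 58.3 CPM against 3.73 and 0.658 CPM (3.77, SE 0.74, adjusted p = 0.00606), and Maf, which promotes Il10 transcription, reached 3.16 (adjusted p = 3.95e-05). The call of Il10 ended at a 5% mitochondrial limit (adjusted p = 0.0504).

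Cytotoxic genes were mostly lower in Tregs. Of 11 tested cytotoxic genes, 8 were lower in Tregs and 1, Gzmb, was higher. Nkg7, a protein of cytotoxic granules, stood at 248 and 338 CPM in Tregs and at 1213 and 1501 CPM in CD8 T cells (-2.39, SE 0.11, adjusted p = 8.68e-07). Ccl5, a chemokine of effector T cells, had 953 and 1719 CPM against 5869 and 6432 CPM (-2.37, SE 0.29, adjusted p = 0.000232). Ifng had 19.5 and 18.7 CPM against 130 and 226 CPM (-3.36, SE 0.27, adjusted p = 1.59e-05). Gzmb alone ran the other way, at 355 and 511 CPM against 140 and 355 CPM (0.76, SE 0.21, adjusted p = 0.0326), and that call ended under DESeq2 (adjusted p = 0.105) and at a 5% mitochondrial limit (adjusted p = 0.804). Eomes, a transcription factor of cytotoxic cells, had 2.43 and 4.67 CPM against 163 and 106 CPM (-5.35). Lag3 and Pdcd1 did not pass against CD8 T cells (-0.39 and 0.12, adjusted p = 0.516 and 0.775). Of the 19 glycolysis and hypoxia genes, 14 were higher in Tregs (median 0.94).

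The Treg share of T cells depended on the denominator. Of CD3-positive barcodes, Tregs made up 110 of 1828 in the control (6.02%, exact 95% interval 4.97 to 7.21) and 95 of 1400 in the library labelled knockout (6.79%, 5.52 to 8.23). The ratio of 1.13 had an interval from 0.865 to 1.47, so no difference was detectable at this depth, and at a 5% mitochondrial limit the order turned, to 11.6% and 9.48%. Of Tregs and CD8 T cells together, Tregs were 16.6% (13.8 to 19.6) and 20.2% (16.7 to 24.1). Of Tregs and conventional CD4 T cells together they were 110 of 381 (28.9%, 24.4 to 33.7) and 95 of 208 (45.7%, 38.8 to 52.7). A Cd4 UMI was required of conventional cells and not of Tregs, of which 54.5% and 45.3% had one. Conventional cells without a Cd4 UMI are missing from this denominator, so these are not shares of all CD4 T cells. The ratio of the 2 shares was 1.58, with an interval from 1.27 to 1.96. It was above 1 in cells with Xist only (25.7% and 46.8%) and in myeloid-low barcodes (27.4% and 41.6%). In cells with Y-linked transcripts only, 48 of 132 and 10 of 20 were Tregs (36.4% in the control), and the interval of the ratio, 0.84 to 2.25, included 1. These shares come from 1 pool each, and the spread between mice is unknown.

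**Figure D4:**
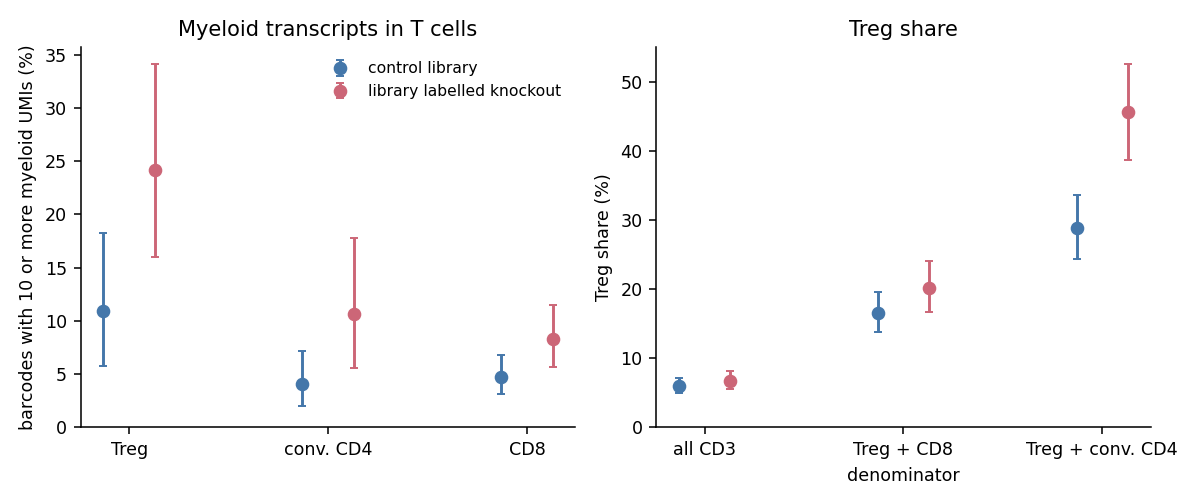
Left, share (%) of Tregs, conventional CD4 T cells and CD8 T cells with at least 10 myeloid UMIs; right, Treg share (%) of all CD3-positive barcodes, of Tregs with CD8 T cells and of Tregs with conventional CD4 T cells. Points are shares and bars exact 95% binomial intervals, blue for the control and red for the library labelled knockout; the intervals of the 2 libraries are separate on the right only for Tregs with conventional CD4 T cells.

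Between the 2 libraries, each of the 4 Treg markers outside the rule differed by less than 2-fold. Interferon-induced transcripts and Lag3 were higher and Itga4 lower in Tregs of the library labelled knockout. Ratios were computed as log2 of (CPM + 10) in the library labelled knockout over (CPM + 10) in the control, for the 5802 genes whose UMIs in the 2 libraries came to 20 or more. At least 2-fold higher were 139 genes (2.4%) and at least 2-fold lower 109 (1.88%), the median being -0.05. In myeloid-low members, 63 of 4228 genes were higher (1.49%) and 92 lower (2.18%). No p-value can be given. In sums over pooled cells, fewer cells with a transcript and less of it per cell cannot be told apart from the CPM alone, so the number of members with a UMI is given for the leading genes.

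Of the identity markers, Foxp3 was required by the rule, so its level is a description only. It had 601 CPM in the control and 497 CPM in the library labelled knockout (-0.27). In myeloid-low members it had 725 and 791 CPM (0.13). Ctla4 had 793 and 896 CPM (0.17). Izumo1r had 370 and 194 CPM (-0.90), the lowest ratio of the 5 markers. Tnfrsf4 had 613 and 1024 CPM (0.73) and 698 and 1399 CPM in myeloid-low members (0.99). Its relative Tnfrsf18 had 496 and 774 CPM (0.63), and 569 and 1248 CPM in myeloid-low members (1.12). Both costimulatory receptors were higher in the library labelled knockout under the 11 settings tried, at log2 ratios of 0.70 to 1.40 for Tnfrsf4 and 0.59 to 1.24 for Tnfrsf18. Of the measured core, effector and resting genes, 0 of 17 and 0 of 18 passed the fold in the first 2 lists, with medians of -0.04 and 0.01. In the third, 1 was higher (Ccr7) and 1 lower (S1pr1) of 10. Past the fold were 2.4% (higher) and 1.88% (lower) of all measured genes. Lists of this size therefore cannot show that their genes differed less than other genes.

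Lag3 (chromosome 6, 124904361 to 124911705, minus strand, GRCm38), an inhibitory receptor that binds MHC class II, had 14 UMIs in 9 control members (34.0 CPM) and 70 UMIs in 31 members of the library labelled knockout (163 CPM). The ratio was 4.80 (exact interval 2.68 to 9.22). It was also higher in myeloid-low members (46.3 and 245 CPM), in those with Xist only (43.4 and 182 CPM) and in those with Y-linked transcripts only (36.1 and 144 CPM), where the library labelled knockout gave 6 UMIs. In conventional CD4 T cells Lag3 had 14.1 and 42.8 CPM and in CD8 T cells 90.1 and 115 CPM. Across the 11 other settings its log2 ratio lay between 1.34 and 2.18.

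Itga4 (chromosome 2, 79255426 to 79333123, plus strand), the alpha-4 integrin of T-cell adhesion to vessels, was lower in the library labelled knockout. It had 147 UMIs in 64 control members (358 CPM) and 63 UMIs in 24 members of the library labelled knockout (147 CPM), a ratio of 0.411 (0.301 to 0.556). In myeloid-low members the levels were 410 and 89.5 CPM, in those with Xist only 621 and 100 CPM, and in those with Y-linked transcripts only 252 and 47.9 CPM. Itga4 was also lower in the library labelled knockout in conventional CD4 T cells (643 and 396 CPM), CD8 T cells (668 and 359 CPM) and B cells (401 and 275 CPM). Across the 11 settings its log2 ratio in Tregs lay between -2.52 and -1.05. S1pr1 had 102 and 37.3 CPM (-1.24), in 24 and 10 members, and the tissue-homing receptor Cxcr6 90.0 and 35.0 CPM (-1.15), in 24 and 8 members. Ccr2 stood at 907 and 991 CPM (0.13).

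Of 37 measured interferon-stimulated genes, 12 were at least 2-fold higher in Tregs of the library labelled knockout and 0 lower, and 33 lay above 0 with a median of 0.69. Of all measured genes, 2.4% were at least 2-fold higher and 44.7% lay above 0. Summed, the list without Usp18 stood at 6948 and 11111 CPM, a ratio of 1.60 (1.53 to 1.68). In myeloid-low members, 2 of 22 were at least 2-fold higher and 18 lay above 0, with a median of 0.28. Of all genes measured there, 1.49% and 47.6% did so. The list sums in myeloid-low members were 6888 and 9248 CPM, a ratio of 1.34 (1.26 to 1.43). The 5 barcodes with most list UMIs held 18.4% of the list in the control and 35.1% in the library labelled knockout. The list was higher there in the other lymphocytes too, at ratios of 1.45 in conventional CD4 T cells, 1.80 in CD8 T cells and 1.47 in B cells. In myeloid-low barcodes the ratios were 1.32 in conventional CD4 T cells and 1.33 in CD8 T cells, close to that of Tregs. The log2 ratio of the sum in Tregs was 0.76 in cells with Xist only and 0.12 in cells with Y-linked transcripts only. The parts of sex mixture and myeloid transcripts in these ratios were not tested beyond these values.

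Members of the list differed in how widely they were spread over Tregs. Ifi27l2a, a small interferon-induced protein, had 428 UMIs in 88 control members (1041 CPM) and 714 UMIs in 85 members of the library labelled knockout (1666 CPM), at 0.67, and 0.80 in myeloid-low members. Ly6a, the surface protein Sca-1, had 759 and 1227 CPM (0.69), in 80 and 81 members, and 0.83 in myeloid-low members. Both genes were spread over most members, and their ratios were no smaller without the myeloid-high ones. Isg15, the ubiquitin-like modifier that USP18 removes from proteins, had 14 UMIs in 9 control members (34.0 CPM) and 163 UMIs in 19 members of the library labelled knockout (380 CPM), but 45.4% of the latter came from 1 barcode. In myeloid-low members it had 5 and 15 UMIs (16.5 and 70.7 CPM). Rsad2, the antiviral protein viperin, had 9 UMIs in 1 control barcode and 170 UMIs in 8 members of the library labelled knockout, 81.8% of them in 1. In myeloid-low members it had 0 and 3 UMIs. Rsad2, Isg15 and Ifit1, in which 46.2% of UMIs came from 1 barcode, thus rest on few members. Irf7, the factor that amplifies interferon production, had 43.8 and 147 CPM, and 36.4 and 33.0 CPM in myeloid-low members, so its direction turned (-0.11). Ly6e was level at 1554 and 1605 CPM (0.05).

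Interferon-gamma-induced genes gave 4 of 21 higher and 0 lower (median 0.36) and 4 of 17 higher in myeloid-low members (median 0.60). The shares of all measured genes that were higher by the fold were 2.4% and 1.49%. Socs1, which blocks cytokine receptor kinases, had 10 UMIs in 7 control members (24.3 CPM) and 36 UMIs in 20 members of the library labelled knockout (84.0 CPM), at 1.45, and 1.74 in myeloid-low members. Irf8, a transcription factor induced by interferon-gamma, had 105 and 322 CPM (1.53) and 59.6 and 146 CPM in myeloid-low members (1.17). The guanylate-binding protein Gbp3 had 58.4 and 124 CPM (0.97), in 19 and 33 members. All 3 stayed higher without myeloid-high members, while in cells with Y-linked transcripts only Gbp3 had 9 and 1 UMIs and turned to -0.57. Of 15 genes of MHC class I presentation, 13 lay above 0 with a median of 0.34, against 44.7% of all measured genes. Past the fold were 0 of the 15, against 2.4% (higher) and 1.88% (lower) of all. H2-D1 stood at 2240 and 3007 CPM (0.42) and the immunoproteasome subunit Psmb8 at 559 and 851 CPM (0.60). The receptor genes Ifngr1 (800 and 760 CPM) and Ifnar1 (117 and 126 CPM) differed little.

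The promoters of Isg15 and Socs1 are shown because these 2 genes were higher in Tregs of the library labelled knockout and hold the core letters of the interferon response element, to which interferon-activated STAT and IRF factors bind. The letters searched were GAAANNGAAA on both strands, where matches may overlap, in RefSeq windows of 300 bases around transcript starts (GRCm38.p6). Capitals mark the bases that matches cover, and each sequence is written 5' to 3' on the strand of the gene, for Isg15 chr4:156200769-156201068 and for Socs1 chr16:10785487-10785786, both on the minus strand.
Isg15: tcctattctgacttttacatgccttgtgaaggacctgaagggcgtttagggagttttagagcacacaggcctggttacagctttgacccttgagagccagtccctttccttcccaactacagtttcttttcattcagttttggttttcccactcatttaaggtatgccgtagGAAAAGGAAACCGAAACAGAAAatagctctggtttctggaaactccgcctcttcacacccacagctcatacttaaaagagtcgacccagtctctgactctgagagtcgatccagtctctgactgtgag
Socs1: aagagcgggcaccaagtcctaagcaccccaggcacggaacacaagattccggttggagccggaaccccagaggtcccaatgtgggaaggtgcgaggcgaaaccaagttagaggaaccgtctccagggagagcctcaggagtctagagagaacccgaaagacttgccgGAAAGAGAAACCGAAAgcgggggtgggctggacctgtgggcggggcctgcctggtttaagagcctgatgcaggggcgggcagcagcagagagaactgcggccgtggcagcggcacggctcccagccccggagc
Isg15 holds 3 overlapping matches and Socs1 holds 2. The letters occur in 1131 of 32851 promoter entries (3.44%), in 1079 of 27025 gene symbols (3.99%) and in 17 of the 31 genes of the interferon-stimulated list that have an entry (54.8%). A match describes the letters of the window and not a site in use.

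The suppressive list summed to 1197 UMIs in control Tregs and 1347 in those of the library labelled knockout (2911 and 3142 CPM), a ratio of 1.08 (0.998 to 1.17). Past the fold were 0 of its 11 measured genes, against 2.4% (higher) and 1.88% (lower) of all measured genes. The cytotoxic list stood higher in the library labelled knockout, at 715 and 1321 UMIs (1739 and 3082 CPM), a ratio of 1.77 (1.62 to 1.94), and of 1.45 (1.30 to 1.62) in myeloid-low members. The 5 barcodes with most list UMIs held 24.5% of the list in the control and 38.5% in the library labelled knockout, where 1 barcode had 204 of the UMIs. Of its 8 measured genes, 8 lay above 0, against 44.7% of all measured genes, and 3 passed the fold (Gzma, Ctsw and Klrk1). Gzma and Klrk1 turned to -0.18 and -0.31 in myeloid-low members, and 97.7% of the 43 Gzma UMIs in the library labelled knockout came from 1 barcode. Markers of NK cells, a list that also holds Gzma, summed to 14.6 and 133 CPM in all members and to 19.9 and 18.8 CPM in myeloid-low members, and their part in the cytotoxic sum was not tested. Helper cytokines and chemokines summed to 878 and 1449 UMIs, a ratio of 1.58 (1.45 to 1.72), of which Ccl5, a member of both lists, gave 392 and 737. The 5 barcodes with most UMIs of this list held 25.6% and 36.2% of it.

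Most single genes of suppressive and effector output had few transcripts. Il10 had 10 UMIs in 8 control members and 25 UMIs in 13 members of the library labelled knockout (24.3 and 58.3 CPM, 0.99), and 33.1 and 113 CPM in myeloid-low members (1.51), but 2 and 0 UMIs in members with Y-linked transcripts only. Gzmb had 355 and 511 CPM (0.51), in 40 and 42 members. The chemokine Ccl4 had 78 and 222 UMIs in 7 and 19 members (1.40), with 48.7% and 36.5% of them in 1 barcode, and turned to -0.47 in members with 1500 to 6000 UMIs. Areg had 22 and 10 UMIs in 11 and 8 members (-0.93), but lay the other way within members with Xist only (1 and 6 UMIs, 0.36) and within those with Y-linked transcripts only (8 and 3 UMIs, 0.83). Penk had 42 and 27 UMIs in 4 and 6 members (-0.62). Of Il10, Gzmb, Ccl4, Areg and Penk, none was found in more than 42 members of a library.

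**Figure D5:**
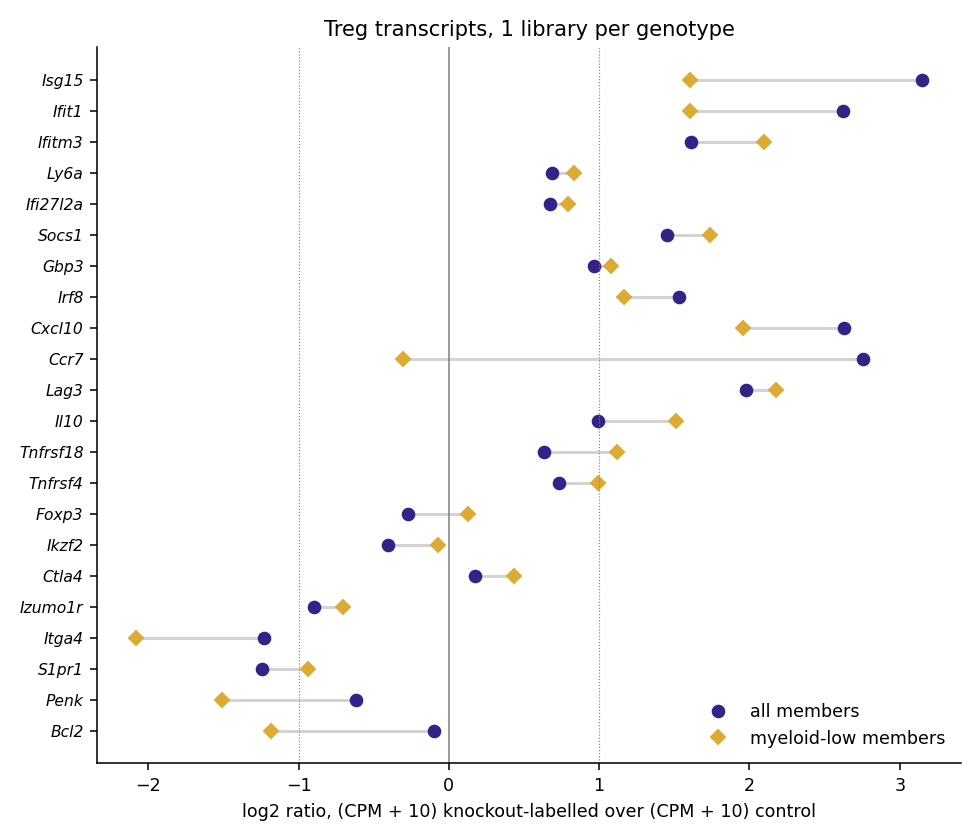
Log2 ratio of (CPM + 10) in Tregs of the library labelled knockout over the control for genes named in the text; dark points are all members, orange diamonds myeloid-low members, dotted lines mark the fold of 2 and 1 library per genotype leaves no replicate error. Lag3 and Itga4 keep their side in both sets, whereas Ccr7 goes from 2.76 to -0.31.

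By the rule for naming, 10 genes led each direction. H2-Ab1, H2-Eb1, H2-Aa, Cd74 and Ciita, which serve MHC class II presentation in dendritic cells and B cells, were among the higher genes, with H2-Ab1 at 479 and 1892 CPM in all members and at 39.7 and 42.4 CPM in myeloid-low members. Summed, the dendritic list stood at 2121 and 7213 CPM in all members and at 242 and 297 CPM in myeloid-low ones. Its genes Flt3, Xcr1, Clec9a and Fscn1 had 0 UMIs in the latter. The list also holds H2-Ab1, H2-Aa and Cd74. It helped to set the division, so low levels of its genes in myeloid-low members follow from that choice. Yif1b, a membrane protein of secretory transport, had 12.2 and 67.7 CPM, in 5 and 19 members (1.81, and 1.63 in myeloid-low members), and Ctsw, a cathepsin of cytotoxic lymphocytes, 17.0 and 74.6 CPM, in 4 and 18 members (1.65 and 1.20). Lower genes besides Lyz2 included Arhgap5 (48.6 and 7.0 CPM, -1.79), Pink1, a kinase of mitochondrial quality control (94.8 and 23.3 CPM, -1.65), and Fam169b (158 and 46.7 CPM, -1.57). These 3 were lower in myeloid-low members as well, at -1.62, -1.35 and -1.24.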

How the data were processed

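The 2 libraries (1 of Usp18f/f and 1 of Usp18f/f LysM-Cre tumors) were deposited by the authors as raw UMI counts for 27998 genes, in 7754 and 6063 barcodes with 43412346 and 48167632 UMIs. Cell Ranger 3.0.1 and the build mm10 are named in the submitters' processing notes, and the annotation version is not given in the sources used here. The feature table holds no constant genes of the T-cell receptor under the names searched.

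Members and gene lists were chosen with earlier results of these data known. No doublet caller was applied beyond the rule. CPM divide a sum of UMIs by its total. Shares carry exact Clopper-Pearson intervals, CPM exact Poisson intervals, and ratios of CPM exact conditional binomial intervals, all at 95%. Class sums were fitted with edgeR 4.0.16 in R 4.3.3 (TMM, filterByExpr, quasi-likelihood test, Benjamini-Hochberg at 0.05), with DESeq2 1.42.0 as an alternative. Rule genes and Cd4 were left out of called counts. Python 3.11.15 with scipy 1.17.1 and scanpy 1.11.5 did the rest, and the scripts were tested on simulated data.

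Besides list genes, the text could name the 10 highest and 10 lowest ratios between libraries among genes with at least 20 UMIs and no barcode above 20% of the gene's UMIs in the higher library, and the 12 highest and 12 lowest called genes of each class comparison that went the same way in both libraries. Other settings changed the mitochondrial limit, the Foxp3 minimum, doublet removal, depth, myeloid transcripts, sex transcripts, pseudocount, filters and scaling. Positions come from GENCODE M21 (GRCm38).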

Additional observations from a re-analysis of the deposited data

Results flagged for a closer look

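Foxp3 transcripts were also found in barcodes that the membership rule leaves out, and none of these enters the comparisons above. Among barcodes with both CD3 and CD8 transcripts, 3.98% had a Foxp3 UMI in the control (26 of 653, exact 95% interval 2.62 to 5.78) and 4.48% in the library labelled knockout (20 of 446, 2.76 to 6.84). B cells of the same libraries, with 0 of 1458 and 0 of 458, stayed at 0.

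Of barcodes with Foxp3 and CD3, without CD8 and with at most 1 Cd79 UMI, whatever their proliferation UMIs, 11.6% in the control (17 of 146, 6.93 to 18.0) and 29.9% in the library labelled knockout (46 of 154, 22.8 to 37.8) were set aside for Cd209a, a lectin of monocyte-derived dendritic cells, or for more than 2 C1q UMIs. In CD3-positive CD8 barcodes without Foxp3 the same transcripts were found in 23 of 650 (3.54%) and 74 of 500 (14.8%). The difference between the libraries was not tested, since each is 1 pool.

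Proliferating barcodes that otherwise met the rule, with at least 3 UMIs of Mki67 and Top2a, made up 14.7% of Foxp3 barcodes in the control (19 of 129, 9.11 to 22.04) and 12.04% in the library labelled knockout (13 of 108, 6.57 to 19.7).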

How the results depend on the processing

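The limits are those of 1 pool per genotype: shares, sums and ratios between the libraries carry counting error only, class tests have 2 libraries as replicates, and genes with few UMIs in 110 and 95 members cannot show small differences. No paired analysis between genotypes was possible because each genotype has 1 library. The class tests were paired within libraries through the library term. Leaving out either library leaves 1 sum per class, so values without a test were computed and no count of called genes exists. Besides the myeloid-low division, chosen after the data were seen, all settings were planned, and the cause of a change was not tested.

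The log2 ratio of Treg shares of CD3-positive barcodes was 0.17 and turned to -0.29 at a 5% mitochondrial limit. The log2 ratio of summed interferon-stimulated UMIs, 0.68, was 0.76 with at least 2 Foxp3 UMIs, 0.55 without barcodes over 1 macrophage, B-cell or melanoma UMI, 0.51 with 1500 to 6000 UMIs, 0.43 in myeloid-low barcodes, 0.76 with Xist only, 0.12 with Y-linked UMIs only and 0.75 with TMM scaling. Genes past the fold between the libraries were 139 higher and 109 lower. Without barcodes over 1 macrophage, B-cell or melanoma UMI 80 were higher, and in myeloid-low members 63. With Xist only there were 371 and 240, with Y-linked UMIs only 85 and 353, at a pseudocount of 50 CPM 44 and 8, at a minimum of 50 UMIs 62 and 35, and at 5 UMIs 299 and 260. A pseudocount of 5 CPM gave 175 lower.

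Against conventional CD4 T cells (309 higher, 296 lower), the 5% limit gave 165 and 151, at least 2 Foxp3 UMIs 169 and 190, and DESeq2 146 and 155, while Scrublet left 195 higher and no filter gave 461 lower. Against CD8 T cells (559 and 451), DESeq2 gave 208 and 207 and a fit of the 2 classes alone 873 and 682. The 5% limit gave 329 higher, at least 2 Foxp3 UMIs 346 higher and no filter 699 lower.

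Among genes past the fold, directions that turned between libraries were, without barcodes over 1 macrophage, B-cell or melanoma UMI, Ifi30 (-0.87), Ciita (-1.19), Ccr7 (-0.15), Gzma (-0.11), Klrk1 (-1.05) and Irf7 (-0.74), and with 1500 to 6000 UMIs, Ciita (-0.49), Ccr7 (-0.20) and Ccl4 (-0.47). In myeloid-low members they were H2-Eb1 (-0.34), H2-Aa (-0.77), Ciita (-0.99), Ccr7 (-0.31), Gzma (-0.18), Klrk1 (-0.31) and Irf7 (-0.11). Gm16586 turned with Xist only (1.05). With Y-linked UMIs only, Usp18 (-0.93), Cxcl10 (-0.93), Gzma (-0.54), Ifit3 (-0.54), Bst2 (-0.81) and Ccl4 (-3.30) did. Of 27 genes under the fold that were followed, 14 turned in at least 1 setting, 9 of them with Y-linked UMIs only: Areg (0.83), Ccr2 (-0.36), Ctla4 (-0.30), Gbp3 (-0.57), Ikzf2 (0.19), Il10 (-0.93), Il1rl1 (0.072), Rora (0.23) and Tap1 (-0.77). Between classes, Pdcd1 (-0.093) against conventional CD4 T cells and Il7r (0.27) against CD8 T cells turned at the 5% limit, and Arg1 (-1.22) against conventional CD4 T cells with 1500 to 6000 UMIs. Of the values for single genes between libraries, 532 moved by at most 0.5, 178 moved by more and 23 were the turns past the fold given above. Against conventional CD4 T cells, 868 stayed on their side of the threshold or, with a library left out, moved by at most 1. Beside them, 46 calls were gained, 52 were lost, 49 values moved by more and 2 turned. Against CD8 T cells, 918 stayed, 32 calls were gained, 25 were lost, 54 values moved by more and 1 turned.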
